A study of Saccharomyces cerevisiae with 11 samples.

Results

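Yeast that had grown for 8 h with arsenate in phosphate-rich medium was compared with untreated yeast on 2 arrays, and 3197 of the 5636 genes named on the array table could be used. A gene was used if it had a value on both arrays of 8 h and if its spots, where it had several, lay within 0.5 of each other on each array. Of the other genes, 1056 were left out because their spots disagreed and 1383 because they were measured on 1 or 0 of these arrays. All values are log2 ratios, arsenate divided by control, in which 1 means a doubling, and each array was centred on the median of its genes.

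The strain was Saccharomyces cerevisiae S288C, grown at 30 °C and pH 5.7 in yeast nitrogen base made without phosphate or sodium chloride, with 2% sucrose and added KH2PO4. Arsenate, at 2 μM, was added at an optical density of 0.08, and control cultures received sodium chloride instead. Phosphate was 1 mM (high phosphate, called normal in the sample sources) on 5 arrays: a pair each for 4 h and 8 h and a single array for 10 h. On 6 further arrays of another design it was 100 μM (low phosphate). Every array paired the Cy5-labelled RNA of an arsenate culture with the Cy3-labelled RNA of a control culture. Whether replicate arrays came from separate cultures is not stated, so p-values measure the spread between these arrays only, and their small number sets the precision.

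Arsenate resembles phosphate and enters yeast cells through phosphate carriers, so external phosphate competes with it. Inside the cell Arr2 reduces arsenate to arsenite, Arr3 exports arsenite across the plasma membrane, and Ycf1 moves arsenite bound to glutathione into the vacuole. Arr1 is the transcription factor that activates ARR2 and ARR3. Sulfate assimilation supplies the cysteine from which glutathione is made, and the PHO regulon is the set of genes that cells activate when phosphate is scarce.

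The replicate arrays of 8 h agreed poorly, and where they disagreed followed the number of the spot in the table. Across the 3197 genes their Pearson correlation was 0.260 and their Spearman correlation 0.472, against 0.546 and 0.694 for the 4249 genes usable on both arrays of 4 h. These correlations run across genes, which are not independent replicates. The table numbers its 10807 spots from 1. That range was cut into 10 equal parts. In the 4 parts of lowest numbers 35.9%, 33.1%, 28.6% and 19.1% of spots differed by over 1 between the arrays of 8 h. In the later parts the share lay between 7.17% and 1.27%, while for the arrays of 4 h it lay between 0.851% and 4.86% in every part. The correlation across spots ran from -0.12 to -0.01 in the first 4 parts and reached 0.683 in the last. With only spots numbered 5405 and above it was 0.534 over 2724 genes, close to the 0.557 of the arrays of 4 h. Replicate 1 of 8 h departed more from the mean at 4 h than replicate 2 did. In the first 4 parts 22.9%, 20.6%, 14.9% and 9.61% of its spots lay over 1 from that mean, against 7.10%, 8.61%, 10.3% and 6.59% for replicate 2. In the later parts both shares lay between 1.27% and 4.90%. As deposited, 246 spots were below -2 on replicate 1 and 85 on replicate 2. Levels differed by spot number too. On replicate 1 of 8 h the median of the spots as deposited ran from -0.55 to -0.15 in the first 4 parts and from -0.08 to 0.03 later. On replicate 2 it was -0.27 in the first part and -0.10 in the last, and at 4 h -0.40 and -0.07 on replicate 1 but -0.17 and -0.19 on replicate 2. Centring used 1 median per array and left these differences in place. What the spot numbers stand for on the slide is not given in the sources used here, and the cause of these patterns was not tested.

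**Figure D1:**
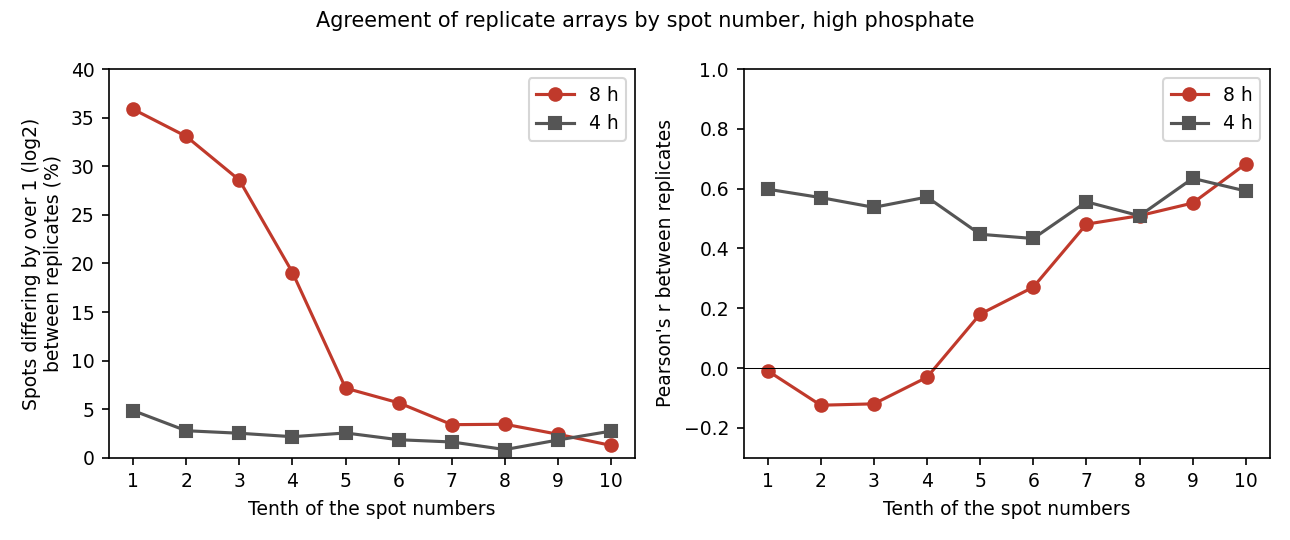
Agreement of replicate arrays at high phosphate by part (1 to 10) of the range of spot numbers: on the left, the percentage of spots whose log2 ratios differ by over 1, and on the right, Pearson's r across spots. The arrays of 8 h (circles) start at 35.9% and end at 1.27%, whereas the arrays of 4 h (squares) stay at 4.86% or lower.

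Duplicate spots gave a second view of the same limit. Among genes with several spots, 27.6% and 22.8% had spots beyond 0.5 of each other on replicates 1 and 2 of 8 h, against 11.2% to 12.9% on the other 3 arrays. At that limit the widest gene kept was GRR1 at 0.498 and the narrowest left out was DIE2 at 0.5002. Of the genes left out, 81.0% had a measured spot numbered 4323 or lower, and of the genes used 43.6% did. A gene could be left out only with at least 2 measured spots on an array, which many genes used lacked. The shares are thus not like for like. The correlation between the arrays of 8 h was 0.628 over the 1149 genes with at least 2 spots on both arrays, while the other 2048 genes rested on a single spot on at least 1 array. The 1149 genes had to pass the spot filter on both arrays, whereas a single spot cannot fail it. How far the filter raised their correlation was not tested. A ratio also cannot tell fewer cells of a kind from less RNA per cell.

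The main comparison asked which transcripts differed between arsenate and control at 8 h. Of the 3197 genes, 1320 were higher on both arrays (41.3%), 848 were lower on both (26.5%) and 1029 had opposite signs, around a median of 0.04. In limma's two-sided test on the 5 high phosphate arrays, 0 genes (0%) passed an adjusted p of 0.05, and the smallest adjusted p was 0.0842. At an unadjusted p under 0.05 there were 640 higher (20%) and 263 lower (8.23%) genes, 28.2% together. Restricted to the 1149 genes with at least 2 spots, the same fit called 349 genes higher (30.4%) and 36 lower (3.13%). These genes had medians of 0.19 and 0.10 on the arrays, so most lay above the median of all genes, and centred on their own median the fit called 194 higher (16.9%) and 145 lower (12.6%). The 194 were all among the 349 and the 36 all among the 145. Below, a gene is said to have risen or fallen if it is one of those 194 or 36, and every other gene is given by its values. Counts for gene lists are to be read beside the shares over all genes. These were 41.3% higher and 26.5% lower on both arrays, and 16.9% risen and 3.13% fallen among genes with at least 2 spots. The fit pooled the spread of the arrays of 4 h and 8 h, and can understate the error of a gene whose arrays of 8 h disagree. With the 2 arrays of 8 h alone, centred on all genes, 131 of the 1149 genes passed as higher (11.4%) and 6 as lower (0.522%). That fit was not run with the genes centred on their own median.

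Transcripts of the arsenite exporter stood furthest above the control. ARR3 had 4.49 on replicate 1 and 3.80 on replicate 2 of 8 h, a mean of 4.14 (SE 0.22, n = 2, limma adjusted p = 0.0842), and 2.84 at 10 h. It was the only gene past 3-fold in one direction on both arrays, and no other gene used exceeded 1.25 in the mean of both. At 4 h its spots disagreed, at 3.00 and 3.86 on replicate 1 and at 2.74 and -1.61 on replicate 2, so no 8 h minus 4 h difference was computed. The reductase gene ARR2 has 1 spot, which was blank on replicate 1 of 8 h and read 3.51 on replicate 2, beside 3.52 and 3.47 at 4 h and 3.61 at 10 h. Its 4 measured values at high phosphate were thus close to each other. The activator ARR1 was near 0.35 on both arrays of 8 h, at 0.34 and 0.35, beside 0.21 and 0.37 at 4 h and 0.11 at 10 h.

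Of the 7 genes on the arsenic resistance list 4 were used, 3 of them higher on both arrays and none lower. YCF1, the vacuolar transporter, stood at 0.69 and 0.49 and rose by a mean of 0.59 (two-spot fit, SE 0.08, adjusted p = 0.009). The cadmium-transporting ATPase gene PCA1 had values of opposite sign, 0.16 and -0.43. FPS1, the channel through which arsenite enters, was left out because its spots lay 1.20 apart on replicate 2, and YAP1, which encodes an oxidative stress regulator, was blank on replicate 2 and read -1.36 on replicate 1. FRM2, a nitroreductase-like gene, was left out as well. Its spots on replicate 1 read 7.04 and 4.95, a single spot on replicate 2 read 1.41, and its means were 3.49 and 4.13 at 4 h and 5.08 at 10 h. It was therefore above 1 on all 5 arrays, by an amount that the arrays of 8 h do not fix. Its relative HBN1 had 0.45 and -0.22.

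Genes of sulfur assimilation were mostly higher with arsenate. Of 25 members used of 35, 19 were higher on both arrays and 4 lower, with a median of 0.31 against 0.04 over all genes. Of the 13 with at least 2 spots, 9 rose and none fell. MET17, which makes homocysteine from sulfide, stood at 0.74 and 0.76, close together and above both arrays of 4 h at 0.47 and 0.50. HOM3, the aspartate kinase that opens the pathway to homoserine, stood at 0.62 and 0.63, against 0.26 and 0.25 at 4 h. The homoserine dehydrogenase gene HOM6, with a single spot, read 0.62 on both. The sulfite reductase subunit gene MET10 rose by 0.59 (SE 0.09, adjusted p = 0.009) and CYS4, which makes cystathionine, by 0.53 (SE 0.06, adjusted p = 0.008).

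The first enzyme of glutathione synthesis, encoded by GSH1, stood at 0.74 and 0.53 and rose by 0.64 (SE 0.08, adjusted p = 0.008), with 0.42 and 0.41 at 4 h. Its list, glutathione and thioredoxin, did not share that height: of 16 members used of 26, 7 were higher on both arrays and 4 lower, with a median of 0.10, and GSH1 was the only riser of 4 with at least 2 spots. The lowest of that list were the glutathione peroxidase gene GPX1, at -0.14 and -3.91, and the mitochondrial thioredoxin reductase gene TRR2, at -0.29 and -0.32. The permease genes did not stand above 4 h on both arrays. SUL1, for sulfate uptake, had 0.66 and 0.53 at 8 h after 0.65 and 0.73 at 4 h, and 0.29 on the array of 10 h. MUP1, for methionine uptake, stood at 0.44 and 0.40 at 8 h, below its 0.78 and 0.72 at 4 h and above its 0.02 at 10 h. Both rose at 8 h (adjusted p = 0.008 and 0.009). MET3, the sulfate-activating enzyme, read 0.56 and 0.47. MET14, which acts next, was left out for its spots on replicate 1. The lowest members were MET8, which helps make the sulfite reductase cofactor, at -0.79 and -0.96, and MHT1, a homocysteine methyltransferase, at -1.09 and -0.39.

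The 2 highest genes with at least 2 spots lay outside the lists. YML131W, an oxidoreductase of the medium-chain family, stood at 0.96 and 1.00 on the arrays of 8 h, at 0.32 and 0.37 at 4 h and at 0.81 at 10 h. Its mean of 0.98 (SE 0.06, adjusted p = 0.008) was the highest among genes with at least 2 spots. YHB1, the flavohaemoglobin that detoxifies nitric oxide, followed at 0.84 and 0.79, with 0.54 and 0.45 at 4 h. The oxidative stress list had 3 of 11 members used higher on both arrays and 5 lower (41.3% and 26.5% over all genes), with a median of -0.03. Its highest member was GRE2, a reductase that responds to stress, which rose by 0.38 (SE 0.06, adjusted p = 0.010, but 0.0515 with the arrays of 8 h alone) and read -0.12 and -0.14 at 4 h and 0.82 at 10 h. RPN4, the activator of proteasome genes, read 0.52 and 0.44 on its single spot. YML131W and YHB1 were chosen after their values were seen.

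**Figure D2:**
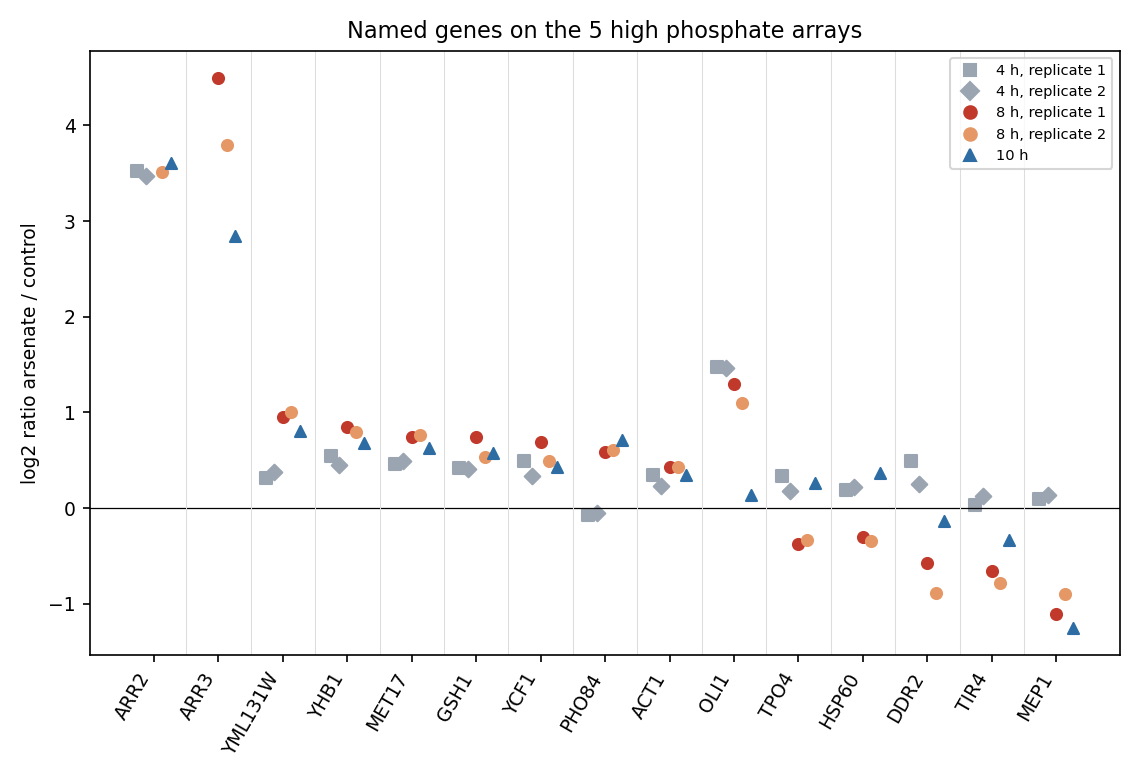
Log2 ratios of arsenate over control of 15 genes on the 5 high phosphate arrays, each point an array (grey, 4 h; red and orange, 8 h; blue, 10 h). ARR2 has no point for replicate 1 of 8 h and ARR3 none for 4 h, where its spots disagreed. YML131W, MET17 and PHO84 are higher at 8 h than on both arrays of 4 h, and TPO4, HSP60, DDR2, TIR4 and MEP1 are lower.

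PHO genes were slightly above the control, where the low phosphate arrays had them far below it. Of 19 members used of 26, 13 were higher on both arrays and 1 was lower, with a median of 0.12, and 2 of the 5 with at least 2 spots rose. Over all genes 41.3% were higher and 26.5% lower on both, and 16.9% of those with at least 2 spots rose. The high-affinity phosphate carrier PHO84 stood at 0.58 and 0.61 at 8 h, at -0.07 and -0.05 at 4 h and at 0.71 at 10 h. It has a single spot, numbered 3700, in the range where the arrays of 8 h disagreed most. The 8 h minus 4 h difference was 0.66 (SE 0.10, unadjusted p = 0.003, limma adjusted p = 0.662). At low phosphate the same gene read -1.35 and -1.10 at 8 h. VTC2 and VTC4, subunits of the polyphosphate polymerase complex, rose by 0.51 (SE 0.08, adjusted p = 0.009) and 0.36 (SE 0.07, adjusted p = 0.016). With the arrays of 8 h alone VTC4 gave 0.0603 and lost the call.

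The secreted acid phosphatase PHO5 was at 0.10 and 0.09, from -0.40 and -0.22 at 4 h, and at 0.66 at 10 h, while low phosphate gave -2.73 and -2.86. PHO89, the sodium-coupled phosphate carrier, read 0.44 and 0.28, against -1.30 and -1.33 at low phosphate. The median of the list at low phosphate was -1.01 over 22 members. Low and high phosphate arrays differ in design and were normalized separately, so these values stand side by side and their difference was not tested. At the lower end, the nucleotidase gene PHM8 read 0.19 and -0.90 and the polyphosphatase gene DDP1 read -2.49 and -0.56. The cyclin PHO80, which restrains the pathway when phosphate is plentiful, read 0.07 and 1.24, and its arrays thus differed by more than its mean of 0.65.

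Ribosomal protein genes were nearly all above the control. Of 111 cytosolic ribosomal protein genes used of 136, 102 were higher on both arrays and none lower, with a median of 0.36. Of the 56 with at least 2 spots, 39 rose and none fell. RPL41A stood at 0.76 and 0.71. The lowest was RPS9A, a single spot at -2.03 and 0.27; the 9 members not higher on both arrays had opposite signs. Many of these genes have near-identical copies that a spot may not separate. Their medians were 0.36 and 0.32 on the arrays of 4 h and 0.36 at 10 h, and the median difference of 8 h minus 4 h was 0.03. Among translation factors, with 15 of 22 higher on both arrays, YEF3, an elongation factor of fungi, stood at 0.93 and 0.68 and rose by 0.80 (SE 0.09, adjusted p = 0.008). Ribosome assembly genes were nearer to all genes, with a median of 0.09 over 79 members. Among 38 with at least 2 spots there were 3 rises and 0 falls, a smaller share of rises than the 16.9% over all such genes. At low phosphate the corresponding medians at 8 h were 1.25 for ribosomal proteins and 0.98 for ribosome assembly.

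Glycolytic genes stood at a similar height, and reference genes lay above 0 as well, though lower. For glycolysis and fermentation, 17 of 20 members were higher on both arrays, with a median of 0.38. The phosphofructokinase gene PFK1 stood at 0.77 and 0.67 and rose by 0.72 (SE 0.06, adjusted p = 0.008). TDH3, for glyceraldehyde-3-phosphate dehydrogenase, stood at 0.72 and 0.54, as at 4 h with 0.73 and 0.53. The pyruvate kinase gene CDC19 read 0.95 and 0.67, and the TDH1 paralogue of TDH3 read -0.08 and -0.05. Of 9 reference genes used, 6 were higher on both arrays and 1 lower, with a median of 0.17, and 1 of 4 with at least 2 spots rose. ACT1, for actin, stood at 0.43 on both arrays and rose (SE 0.07, adjusted p = 0.009). ALG9 at 0.24 passed only when centred on all genes. A constant preference of a gene for a dye is part of every ratio against 0 and cancels in 8 h minus 4 h. Its part in these heights was not tested.

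Biosynthetic groups were mostly higher as well. Of 18 genes of purine and one-carbon synthesis 17 were higher on both arrays (median 0.34), and 5 of 12 with at least 2 spots rose, among them ADE13, for adenylosuccinate lyase, at 0.50 and 0.46 and SHM2, the cytosolic serine hydroxymethyltransferase, at 0.47 and 0.46. Of 49 genes of amino acid synthesis 32 were higher on both arrays (median 0.20), and 9 of 32 with at least 2 spots rose. Over all genes these shares were 41.3% and 16.9%. GCN4, the activator of these genes, stood at 0.70 and 0.50. Of the 9 histone genes used, 8 were higher on both arrays, with HTB1 at 0.56 and 0.57, but none of the 4 with at least 2 spots rose under both centrings.

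Some genes of respiration and of the cell surface rose too. Over all genes used 41.3% were higher on both arrays, and 16.9% of those with at least 2 spots rose. The respiratory chain list had 15 of 25 members higher on both arrays and 4 rises among 9, including ATP1, a subunit of the ATP synthase, at 0.63 and 0.56. Among genes of the tricarboxylic acid and glyoxylate cycles 3 of 6 rose, with the aconitase gene ACO1 at 0.57 and 0.68. Invertase, encoded by SUC2 and needed for growth on sucrose, stood at 0.59 and 0.39, and the fatty acid desaturase gene OLE1 at 0.55 and 0.45, and both rose (adjusted p = 0.009). Of the cell wall list 6 of 15 rose and none fell; the wall protein gene CCW12 read 0.85 and 0.56 on a single spot. The squalene epoxidase gene ERG1 read 0.63 and 0.55, against 0.19 and 0.23 at 4 h.

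**Figure D3:**
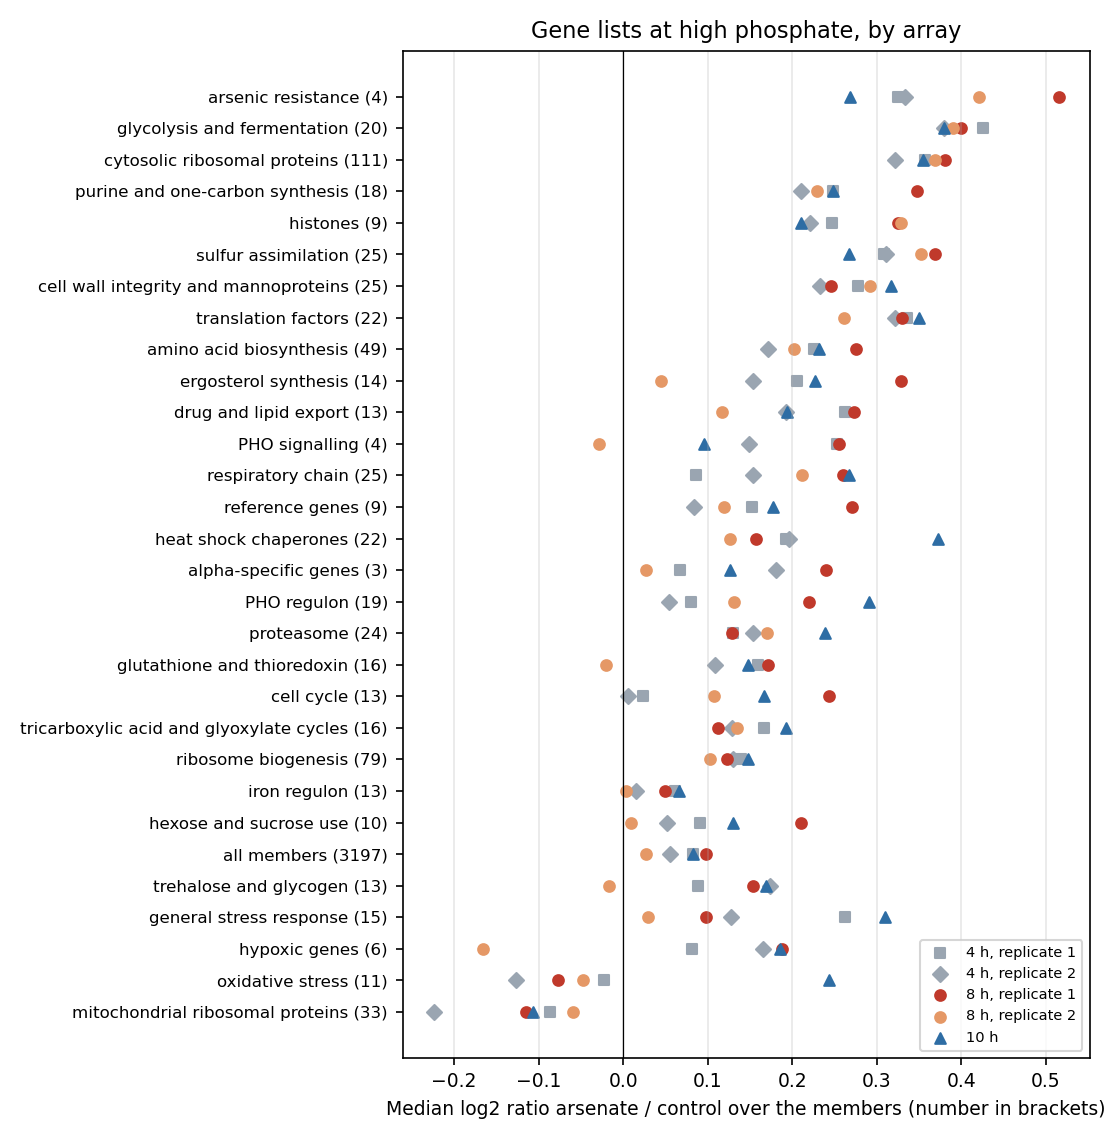
Median log2 ratio of arsenate over control for each gene list on the 5 high phosphate arrays (points), over the members used at 8 h (numbers in brackets), in order of the median at 8 h. Ribosomal proteins, glycolysis, histones and sulfur assimilation lie between 0.21 and 0.43 on every array, and mitochondrial ribosomal proteins are below 0 on every array.

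Mitochondrial genes went both ways. Of 33 mitochondrial ribosomal protein genes used, 17 were lower on both arrays and 5 higher, with a median of -0.13; of the 7 with at least 2 spots 1 fell. The table holds 19 genes of mitochondrial DNA, of which 13 were used, 8 higher and 4 lower on both arrays. OLI1, the mitochondrial gene of an ATP synthase subunit, stood at 1.30 and 1.10 at 8 h and 1.48 and 1.46 at 4 h, but at 0.13 at 10 h. AI1, encoded in an intron of mitochondrial COX1, followed with 0.46 and 0.34 at 8 h, 0.54 on both arrays of 4 h and -0.42 at 10 h, and rose at 8 h, a call lost with the arrays of 8 h alone (adjusted p = 0.0515). Their 8 h minus 10 h differences were 1.06 (SE 0.15, unadjusted p = 0.0023) and 0.82 (SE 0.13, unadjusted p = 0.0035), with a limma adjusted p of 0.791 for both. YER138W-A, an open reading frame given no other name in the files, was also lower at 10 h, with 1.30 and 1.20 at 8 h after 1.44 and 1.08 at 4 h, and 0.36 on the array of 10 h. ARR3, OLI1 and YER138W-A were the only genes past 2-fold higher on both arrays (3 genes, 0.0938%). Each of them rested on a single spot on at least 1 array. OLI1 and YER138W-A have 1 spot each, and ARR3 had 1 measured spot on replicate 1, numbered 9982, which read 4.49 there and 3.58 on replicate 2. The mitochondrial genes had no values on the low phosphate table.

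Stress and chaperone genes gave no common direction. Of 15 general stress genes used of 31, 6 were higher and 4 lower on both arrays, with a median of 0.00 at high phosphate and -1.17 at low phosphate. DDR2, a stress-inducible gene, stood at -0.57 and -0.89, below 0.49 and 0.25 at 4 h. Its values of 8 h came from different low-numbered spots, 1142 on replicate 1 and 2584 on replicate 2. HSP12, a small membrane-associated protein gene, fell by 0.32 (SE 0.09, adjusted p = 0.046, but 0.118 with the arrays of 8 h alone) and read 0.21 and 0.15 at 4 h and 0.34 at 10 h. CTT1, the cytosolic catalase gene, and HSP26, a small chaperone gene, were left out because their spots disagreed on both arrays. Among 22 chaperone genes 11 were higher and 6 lower on both arrays, near the 41.3% and 26.5% of all genes used. HSP78, the mitochondrial disaggregase, rose by 0.54 (SE 0.06, adjusted p = 0.008), whereas HSP60, the mitochondrial chaperonin, fell by 0.32 (SE 0.06, adjusted p = 0.015, but 0.0601 with the arrays of 8 h alone). HSP60 read -0.30 and -0.34 at 8 h after 0.19 and 0.22 at 4 h, and 0.37 on the array of 10 h, so that its arrays of 8 h lay below all others. HSC82, which encodes the constitutive Hsp90, read 0.83 and 0.44 on a single spot.

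Past 2-fold, more genes were lower than higher, and these lower genes rested mostly on low spot numbers. The 12 genes past 2-fold lower on both arrays (0.375%) were YPR196W, MMS4, LEA1, VAB2, PUT4, PTP1, ATG7, RAD53, TRS23, PAU17, COG8 and ELP6. Each rested on a single spot on at least 1 array, and 11 of the 12 had a measured spot numbered 4323 or lower, against 43.6% of all genes used. Low-numbered spots also read lower as a whole on replicate 1, with a median as deposited of -0.55 in the lowest part. Its share in the values of these genes was not tested. For YPR196W and ATG7 the arrays read different spots, so no spot of these genes was measured on both. LEA1, a splicing factor of the U2 particle, was the closest pair, with -1.44 and -1.57 at 8 h, 0.06 on replicate 2 of 4 h and -0.70 at 10 h. VAB2, whose spot lies outside that range, read -1.80 and -1.32 at 8 h after -0.07 and -0.45 at 4 h, and -1.12 on the array of 10 h. TRS23 had a spot outside it as well, numbered 7932, which read -1.79 and -1.14. Its low-numbered spot 948 was measured on replicate 1 only. PUT4, the proline permease, read -5.39 and -1.30. The widest gaps between the arrays were of this kind too: RSN1 read -4.92 and 0.61, RPC82 -5.06 and 0.27, and MRPL22 -5.24 and 0.26. The 235 genes past 2-fold on 1 array only had a measured spot numbered 4323 or lower in 71.9% of cases.

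The ammonium permease gene MEP1, just short of that limit, was more even. It stood at -1.11 and -0.89 at 8 h after 0.10 and 0.14 at 4 h, and at -1.25 on the array of 10 h. At low phosphate it read 0.70 and 0.86 at 8 h. The polyamine exporter TPO4 fell by 0.35 (SE 0.07, adjusted p = 0.016, but 0.0522 with the arrays of 8 h alone), with -0.37 and -0.33 at 8 h after 0.33 and 0.18 at 4 h, and 0.26 on the array of 10 h. The cyclin gene PCL1, which partners the kinase of the phosphate pathway, fell by 0.37 (SE 0.07, adjusted p = 0.019, but 0.0515 with the arrays of 8 h alone). PCL1 was as low on replicate 2 of 4 h, at -0.42, and read 0.14 at 10 h. On replicate 1 of 4 h its spots lay 0.80 apart. HSP12, HSP60, TPO4 and PCL1, all the genes named here as fallen, thus lost that call when the arrays of 8 h alone gave the spread. That check was run only with the centring on all genes, under which most genes with at least 2 spots lay above 0. Centred on their own median, the 4 genes had means of -0.46, -0.46, -0.49 and -0.51, and the check was not run there. TIR4, a wall mannoprotein gene, read -0.66 and -0.78, with only its low-numbered spot 374 measured at 8 h. FIT3, a wall protein that retains iron, read -2.08 and -0.91 on a single low-numbered spot. MEP1, HSP60, MET10, CYS4, HOM6, VTC4, AI1 and FMP40 below were named after their values were seen.

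The second comparison asked what differed between 8 h and the times beside it. For 8 h minus 4 h, 0 of 3140 genes (0%) passed in limma, the smallest adjusted p was 0.662, and 216 (6.88%) had an unadjusted p under 0.05. For 8 h minus 10 h, where the single array of 10 h was assumed to vary like the others, 0 of 2970 (0%) passed, the smallest adjusted p was 0.791, and 169 (5.69%) had an unadjusted p under 0.05. With genes of at least 2 spots 0 passed in either, and 157 of 1144 (13.7%) and 127 of 1088 (11.7%) had an unadjusted p under 0.05. Both arrays of 8 h lay above both arrays of 4 h for 690 of 2774 genes (24.9%) and below both for 538 (19.4%). The PHO list had a median 8 h minus 4 h difference of 0.18 against 0.01 over all genes, and general stress genes -0.11. Single genes among the widest were MEP1 at -1.12 (SE 0.12, unadjusted p = 0.0010), DDR2 at -1.10 (SE 0.17), FMP40, a mitochondrial protein gene, at 0.92 (SE 0.11, unadjusted p = 0.0013) and YML131W at 0.64 (SE 0.10), with an adjusted p of 0.662 for each. The arrays of 8 h read different spots of DDR2. FMP40 was read at 8 h from spot 1555 only and on replicate 1 of 4 h from spot 10484 only, so its difference partly compares different spots.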

How the data were processed

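Each deposited value was read as a log2 ratio already normalized by the authors; per the labels, that used data flagged 0. No source used here gives the log base, the ratio's direction or the method, so base 2 and arsenate (Cy5) over control (Cy3) were taken from the values and the dyes. Backgrounds and intensities were not used. Spots were named through the platform annotation and the reference gene table (9271 of 10807, each 1 gene). The spots of a gene were averaged and each array was centred on its gene median, which as deposited ran from -0.14 to -0.01. Genes were fitted with limma 3.58.1 in R 4.3.3 (lmFit, eBayes, two-sided, Benjamini-Hochberg) on the 5 high phosphate arrays, with 2 residual degrees of freedom for a gene on all of them and 1.80 prior degrees of freedom (3.54 for genes with at least 2 spots). The scripts were tested on simulated data in which every gene and array had the same spread. That test cannot show how the fit behaves where arrays disagree by spot number. The low phosphate table was never fitted with the high phosphate arrays. Tables and figures used Python 3.11.15, pandas 2.3.3 and matplotlib 3.10.9.

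Genes and the 31 lists were chosen with earlier results of these data known. The rule named genes past 2-fold on both arrays, fixed arsenic, phosphate and stress genes, the 2 highest and 2 lowest of each list and the 10 widest gaps between the arrays. Alternatives changed the spot filter, the centring, the scaling, the arrays and the fit.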

Additional observations from a re-analysis of the deposited data

Results flagged for a closer look

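For the genes below both arrays of 4 h lay on one side of 0 and both arrays of 8 h on the other. These sides hold after centring on the array medians, which ran from -0.14 to -0.12 on these arrays. Without centring the mean of PHO5 at 8 h was -0.0355, the same side as at 4 h. PHO80, MEP1, TIR4 and FIT3 also have an array close enough to 0 to change side without it. The values are 8 h minus 4 h differences on the log2 scale, tested in limma as the difference itself, and no adjusted p was below 0.662. Higher at 8 h were the phosphate carrier PHO84 at 0.66, the acid phosphatase PHO5 at 0.40, the cyclin PHO80 at 0.83, the reductase GRE2 at 0.51 and FMP40 at 0.92. Lower at 8 h were the ammonium permease MEP1 at -1.12, the wall proteins TIR4 at -0.80 and FIT3 at -1.70, the stress genes DDR2 at -1.10 and HSP12 at -0.50, the chaperonin HSP60 at -0.52, the exporters TPO4 at -0.61 and PDR12 at -0.50, and the mitochondrial thioredoxin reductase TRR2 at -0.64. Of these genes, PHO84, PHO80, FMP40, TIR4, FIT3, DDR2, TPO4 and PDR12 rested at 8 h only on spots numbered 4323 or lower. Groups of 2 arrays are too small for a test of single outlying arrays. Of the spots that name no gene, 126 had values on both arrays of 8 h, of which 3 were past 2-fold higher and 2 past 2-fold lower on both.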

How the results depend on the processing

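The count of 0 genes at 8 h held under the other centring, scaling, spot tolerance, array weight and fit settings that used both arrays of 8 h and all genes. It became 385 with genes of at least 2 spots, 339 with these centred on their own median, 252 with these not centred (171 higher, 81 lower) and 137 with these on the arrays of 8 h alone. At an adjusted p of 0.1 it was 460. Leaving out 1 array at a time gave 0 to 707 genes for 8 h: 298 higher and 383 lower without replicate 1 of 8 h, 375 and 332 without replicate 2, when the lone array was assumed to vary like the arrays of 4 h. For 8 h minus 4 h the range was 0 to 264 and for 8 h minus 10 h 0 to 266, and the highest counts came without replicate 1 of 8 h; without replicate 2 they were 140 and 122. The correlation of 0.260 became 0.628 with genes of at least 2 spots, 0.534 with spots numbered 5405 and above, and 0.472 as Spearman's rho. The 15 genes past 2-fold on both arrays became 83 at 1.5-fold, 1 at 3-fold, 25 without a spot filter and 8 with spots numbered 5405 and above. With the replicate block 0 genes passed at 8 h (smallest adjusted p 0.161). The replicate differences at 4 h and 8 h correlated at -0.05 over 2774 genes, so the numbers were not taken to pair arrays.

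Over 79 named genes the alternatives gave 1245 values with the same sign and side of the threshold, 240 that passed where the reported value did not, and 9 that turned. Values that turned were small or came from a single array. Without replicate 1 and without replicate 2 of 8 h, in that order, HBN1 (0.12 with both) was -0.22 and 0.45, MRPL22 (-2.49) 0.26 and -5.24, RPC82 (-2.40) 0.27 and -5.06, RPS9A (-0.88) 0.27 and -2.03, RSN1 (-2.15) 0.61 and -4.92, PCA1 (-0.14) -0.43 and 0.16, and PHM8 (-0.35) -0.90 and 0.19. Without centring HBN1 was -0.00987 and PHO5 -0.0355. The alternatives on spots numbered 5405 and above, on block medians, on the arrays of 8 h alone with at least 2 spots and on the centring of those genes were chosen after seeing the data. The cause of the spread between the arrays of 8 h was not tested.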
